A study of Mus musculus with 6 samples.

Results

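The genes described here are 37 mouse genes of glycolysis and of the response to low oxygen, chosen by name from 24421 genes counted by RNA sequencing. They are 23 genes of glycolysis (17 enzymes, 4 control enzymes and 2 transporters) and 14 hypoxia genes (6 regulators and 8 targets). Reads were counted in 6 libraries of polyadenylated RNA from brain-derived mouse endothelial cells, which line blood vessels. The cells were grown in medium with fetal bovine serum and isolated by fluorescence-activated sorting. The comparison was between 3 libraries labelled Fli-1 knockout and 3 labelled Fli-1 wild-type, each at day 6 of co-culture with a vascular niche after deletion was induced. Deletion of the Fli-1 alleles was induced with 4-OHT (4-hydroxytamoxifen, a ligand for tamoxifen-dependent recombinases), and the labels give this treatment for all libraries, those labelled wild-type included. The labels used here do not give the recombinase and the promoter that drives it, the strain, the age or sex of the animals, or whether a group's libraries derive from separate cultures. The p-values thus measure only the spread between these libraries, which may be technical.

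Glycolysis splits glucose into pyruvate in the cytosol and yields ATP without oxygen; endothelial cells are known for making most of their ATP this way, even where oxygen is plentiful. At normal oxygen, prolyl hydroxylases of the Egln family mark the alpha subunits of the hypoxia-inducible factors for removal by the ubiquitin ligase that contains Vhl. At low oxygen the alpha subunits escape this mark, pair with Arnt and bind DNA at genes that include most steps of glycolysis, which is why both pathways are commonly read together.

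Levels are given in CPM, which are counts scaled to a common library total. Fli1, the gene named in the labels, was counted in every library, at 76.8, 110.5 and 77.3 CPM in the knockout-labelled libraries, against 45.3, 59.5 and 45.7 CPM in the wild-type-labelled ones. It was higher in the knockout-labelled library in every same-numbered pair (3 of 3), by a log2 fold change of 0.81 ± 0.051 (± standard error, as for each log2 fold change; edgeR quasi-likelihood test with the replicate number as a block, adjusted p = 1.25e-15). Without the block the log2 fold change was 0.81 ± 0.18 (edgeR, adjusted p = 0.878; DESeq2 called it without the block, at 0.81, adjusted p = 0.0068), and the groups did not overlap. This is the opposite of a loss of transcript under the knockout label. Counts per gene symbol do not show which exons were read, so swapped labels and a transcript left after deletion cannot be told apart. Each direction below therefore refers to how a library is labelled. Total counts were 17550185 to 21385951 per library, the 10 endothelial markers (Pecam1, Cdh5 and others) were all detected, and their summed level was 14750 to 16460 CPM in the knockout-labelled libraries and 13890 to 15400 CPM in the wild-type-labelled ones. All 10 markers of dividing cells rose in the paired test, which has the replicate number as a block (100%, against 4.81% of all genes tested). Their median log2 fold change was 0.91. The 10 had a summed level of 238.5 to 403 CPM in the knockout-labelled libraries and 137 to 219 CPM in the wild-type-labelled ones. Mki67, a protein of dividing nuclei, had 53.4, 75.6 and 93 CPM in the knockout-labelled libraries, against 30.8, 37.04 and 46.4 CPM in the wild-type-labelled ones. The part of cell division in the results below was not tested.

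The glycolysis and hypoxia genes together took 0.957% to 1.04% of the counts of a library, and 35 of the 37 passed the filter on low counts. Aldoc and Slc2a3 did not. None of the 35 passed the comparison of the groups without pairing (edgeR quasi-likelihood test, Benjamini-Hochberg adjusted over 12753 genes, threshold 0.05), and 0 had an unadjusted p below 0.05, against 611 of all genes tested, or 4.79%. In that test 0% of all genes were called higher and 0.00784% lower, the single gene being Igf1, which is named here with its values in view. DESeq2 and limma-voom also called 0 of the 35, with 0 below an unadjusted p of 0.05 in each, and called 0.165% and 0% of all genes. The count stayed at 0 with library size as the only scaling (0.00784% of all genes), without the filter (0.00554%) and when any 1 library was left out (0% to 0.00778%). The 95% interval of the fold change lay within 1.5-fold in either direction for 30 of the 35 genes (85.7%), against 71.6% of all genes tested. The wider intervals belonged to Hk2, Eno1, Eno2, Pfkfb4 and Ndrg1.

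Libraries of the 2 groups that carry the same replicate number deviated together, and a test with the number as a block is therefore given beside the designed one. It called 4 of the 35 genes. Hk1, P4ha2 and Epas1 rose and Ndrg1 fell, against 4.81% of all genes tested called higher and 4.01% called lower (613 and 511 genes, or 471 and 730 with library size as the only scaling). As a share of the genes tested, 11.4% of these 35 were called in either direction, close to the 8.81% of all genes. With the block and DESeq2 2 of the 35 were called (3.17% of all genes), with limma-voom 4 (8.69%), with library size as the only scaling 3 (9.42%), without the filter 3 (6.69%) and at a minimum of 1.5-fold 0 (0.212%). Leaving out number 1, 2 or 3 left 2, 1 and 4 called, against 8.8%, 4.28% and 8.97% of all genes. In all 3 pairs, 11 of the 35 (31.4%) were higher and 6 (17.1%) lower in the knockout-labelled library, against 20.5% and 20.2% of all genes. None of the 35 had groups that did not overlap, a pattern seen in 5.25% of all genes with the knockout-labelled libraries higher and 4.96% with them lower. The paired log2 fold change had a median of 0.02 and lay between -0.2 and 0.2 for 32 of the 35 genes (91.4%), against a median of -0.0033 and 80.0% among all genes tested.

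**Figure D1:**
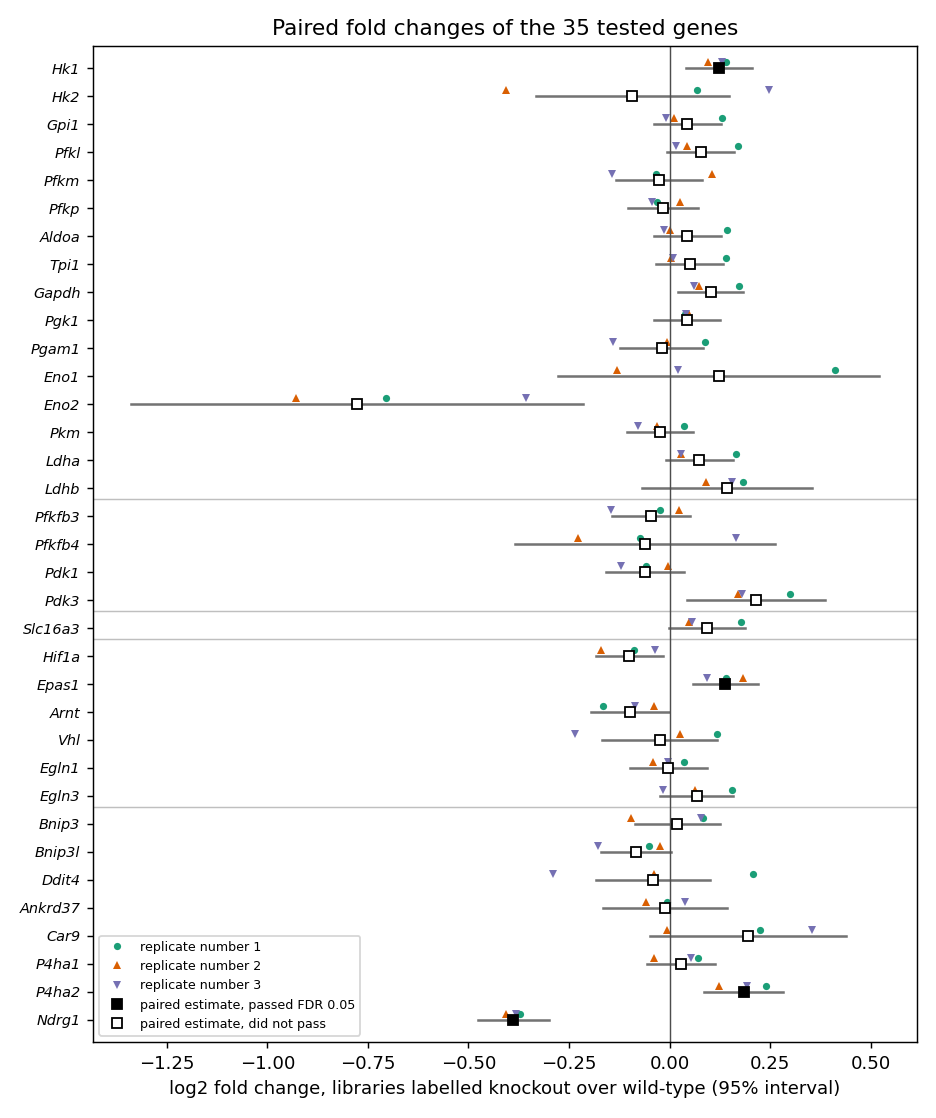
Paired log2 fold change of the 35 tested genes, knockout-labelled over wild-type-labelled libraries, with 95% intervals from the edgeR test with the replicate number as a block. Small symbols give the ratio of each same-numbered pair and filled squares the estimates that passed the adjusted threshold. These intervals are not adjusted and exclude 0 for 9 genes, of which Hk1, P4ha2 and Epas1 (higher) and Ndrg1 (lower) passed; Eno2 has the widest interval.

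The enzymes of glycolysis differed little between the groups. Of 17 enzyme genes, 16 were tested. In the paired test 1 rose, 0 fell and 15 were not called (6.25% called, against 8.81% of all genes). The 16 had a median log2 fold change of 0.044. By pair number the median was 0.13, 0.019 and 0.012, so the knockout-labelled library was furthest above its partner in pair 1. In all 3 pairs 7 of the 16 were higher (43.75%, against 20.5% of all genes) and 1 was lower (6.25%, against 20.2%). The mean level per kilobase of exon, the scale on which genes can be set side by side, was highest for Pkm at 431 ± 42.9 and 439 ± 51.4 CPM per kilobase in the knockout-labelled and wild-type-labelled libraries, followed by Aldoa at 419 ± 26.1 and 406 ± 28.7. The libraries of these 2 genes overlapped in both groups. Ldha followed at 233 ± 10.03 and 222 ± 21.1, Gapdh at 204 ± 8.57 and 191 ± 14.2, Tpi1 at 159 ± 6.14 and 154 ± 12.5 and Pgk1 at 123 ± 8.13 and 119.7 ± 8.09, in the same unit and order of groups. Lower per kilobase were Gpi1 at 74.7 ± 2.05 and 72.5 ± 4.27, Pfkl at 58.4 ± 2.49 and 55.5 ± 5.01 and Hk1 at 40.6 ± 2.64 and 37.3 ± 1.98, of the first steps. Pgam1, of a later step, was at 36.5 ± 0.883 and 37.1 ± 3.56. These levels depend on the length used: merged exons span 6452 bases for Gpi1 and 8532 for Hk1, against 3195 and 4278 for the longest transcript. The order of genes was not repeated with the longest transcript.

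**Figure D2:**
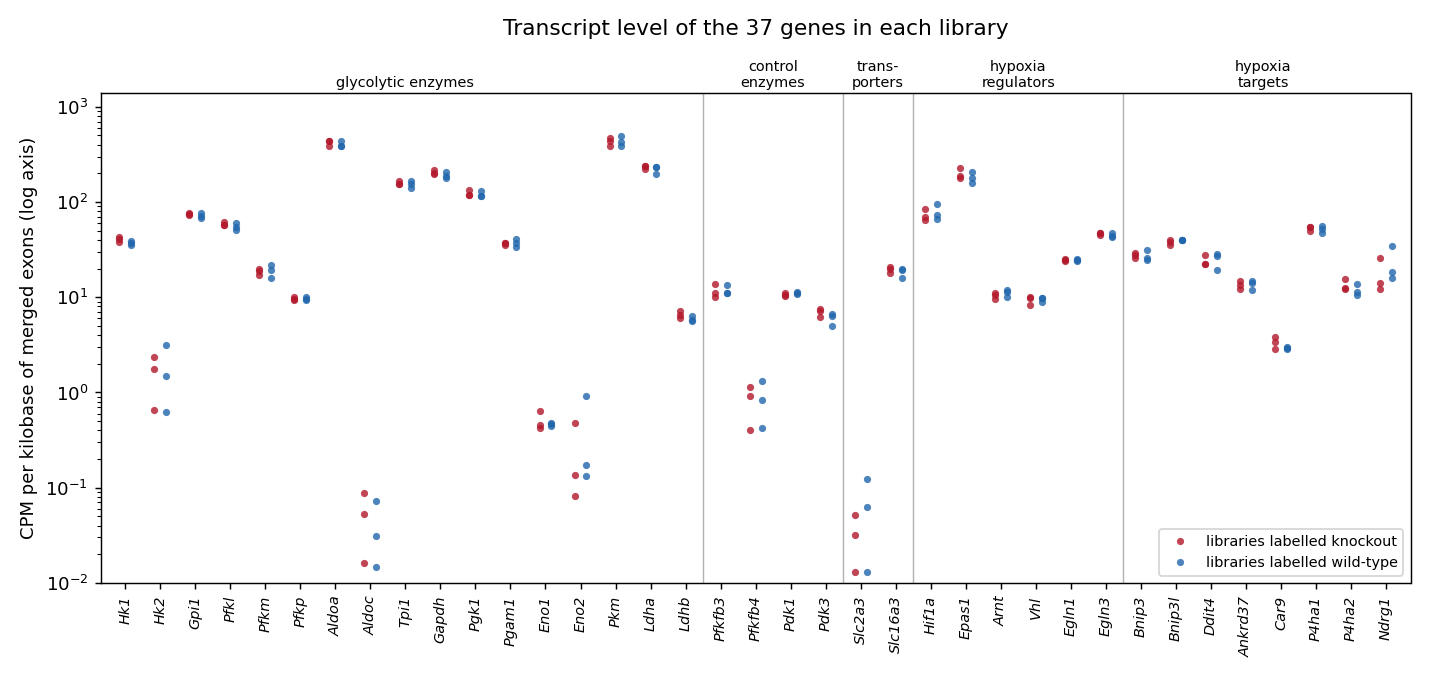
Level of each of the 37 genes in each library, in CPM per kilobase of merged exons on a log axis, with knockout-labelled libraries to the left of wild-type-labelled ones. Levels span from Pkm and Aldoa at the top to Aldoc and Slc2a3, whose reads were too few to test, and the points of both groups overlap for every tested gene.

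Hexokinase traps glucose in the cell as glucose 6-phosphate. Hk1 (ENSMUSG00000037012, chr10:62268855-62379908, minus strand, GRCm38), the form found in most tissues, had 349, 323 and 368 CPM in the knockout-labelled libraries, against 317, 303 and 336 CPM in the wild-type-labelled ones. Every library labelled knockout was above its same-numbered partner, yet the groups overlapped. Hk1 averaged 347 ± 22.5 CPM in knockout-labelled libraries and 319 ± 16.9 CPM in wild-type-labelled ones (SD, n = 3 each). The log2 fold change was 0.12 ± 0.04 (edgeR with the block, adjusted p = 0.0495) and 0.12 ± 0.072 without the block (adjusted p = 0.996). The paired call sat at the threshold: it was lost with DESeq2 (adjusted p = 0.155), with library size as the only scaling (0.142), without the filter on low counts (0.056) and when any 1 of the 3 numbers was left out (0.0839 to 0.299). Hk2, the insulin- and hypoxia-regulated form, had 3.9, 14.1 and 10.6 CPM in the knockout-labelled libraries, against 3.72, 18.6 and 8.92 CPM in the wild-type-labelled ones. Its libraries differed far more by number than by label, and its paired log2 fold change was -0.092 ± 0.12 with a 95% interval of -0.33 to 0.15. Of the hexokinase reads per kilobase of the pair of genes, Hk1 held 96.2% ± 2.14 (knockout-labelled) and 95.5% ± 3.29 (wild-type-labelled) (SD, n = 3 each, as for each share below).

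The remaining preparatory steps had close values in both groups. Gpi1, which isomerises glucose 6-phosphate, had 484, 468 and 494 CPM in knockout-labelled libraries, against 442, 464 and 497 CPM in wild-type-labelled ones. Phosphofructokinase, the committed step, is encoded by a liver-type (Pfkl), a muscle-type (Pfkm) and a platelet-type (Pfkp) gene. Pfkl, the most abundant of them per kilobase, had 380.5, 380.4 and 409 CPM in knockout-labelled libraries, against 338, 369 and 405 CPM in wild-type-labelled ones. Its share of the phosphofructokinase reads per kilobase was 67.5% ± 0.934 (knockout-labelled) and 65.9% ± 2.72 (wild-type-labelled). Pfkm held 21.4% ± 0.891 (knockout-labelled) and 22.5% ± 2.46 (wild-type-labelled), and Pfkp held 11.1% ± 0.75 (knockout-labelled) and 11.6% ± 1.17 (wild-type-labelled). The shares of the 3 genes overlapped between the groups. Aldolase was counted almost entirely as Aldoa, the ubiquitous form, at 1258, 1131 and 1268 CPM in knockout-labelled libraries, against 1140, 1130 and 1279 CPM in wild-type-labelled ones. Aldoc, known from brain, had 6, 1 and 3 reads labelled knockout, against 5, 1 and 2 reads labelled wild-type. Tpi1, which interconverts the triose phosphates, had 425, 430.4 and 457 CPM in knockout-labelled libraries, against 386, 429 and 454 CPM in wild-type-labelled ones. The paired log2 fold changes of Gpi1, Pfkl, Pfkm, Pfkp, Aldoa and Tpi1 lay between -0.026 and 0.077, and none was called.

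In the part of the pathway that yields ATP and NADH, Gapdh, the dehydrogenase often used as a reference transcript, had 826, 822 and 886 CPM in the knockout-labelled libraries, against 733, 782 and 849 CPM in the wild-type-labelled ones. It was higher in the knockout-labelled library in 3 of 3 pairs, with a log2 fold change of 0.10 ± 0.04 that was not called (edgeR with the block, adjusted p = 0.119). Pgk1, the first ATP-forming enzyme, had 266, 266 and 298 CPM in knockout-labelled libraries, against 259, 257 and 289.6 CPM in wild-type-labelled ones. Pgam1, the mutase, had 70.4, 73.8 and 72.8 CPM in knockout-labelled libraries, against 66.2, 74.2 and 80.3 CPM in wild-type-labelled ones. Pkm, pyruvate kinase, had 2210, 1918 and 2336 CPM in knockout-labelled libraries, against 2154, 1959 and 2468 CPM in wild-type-labelled ones. The groups overlapped for each, and the paired log2 fold changes were 0.043, -0.02 and -0.024 for Pgk1, Pgam1 and Pkm.

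Several of these genes share sequence with other loci, and how reads that map to several places were counted is not given in the sources used here. Of the 50-base windows of the longest transcript, 72.2% also occur in other annotated genes for Eno1, 67.96% for Pgk1, 41.5% for Pgam1, 34.4% for Pkm, 27.8% for Gapdh, 27.01% for Ldhb, 16.6% for Ldha and 13.5% for Aldoa. Among the hypoxia targets the share was 62.4% for Bnip3 and 23.4% for Bnip3l. The shares of Aldoa and Ldha in their steps rest on such counts. Eno1 was affected most, since Eno1b holds 70.5% of its windows. Its 72, 43 and 42 reads in the knockout-labelled libraries and 54, 53 and 47 reads in the wild-type-labelled ones are therefore uncertain, and the low count does not show low expression of enolase. Levels of the others may be understated or overstated for the same reason.

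Eno2, the enolase known from neurons, had 0.381, 2.24 and 0.637 CPM in the knockout-labelled libraries, against 0.62, 4.27 and 0.816 CPM in the wild-type-labelled ones. It was lower in the knockout-labelled library in 3 of 3 pairs, with a log2 fold change of -0.78 ± 0.28 and a 95% interval of -1.34 to -0.21 (edgeR with the block, adjusted p = 0.0768), the largest estimate of the 35 genes and not called. Number 2 held the highest library of each group.

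Lactate dehydrogenase turns pyruvate to lactate and restores NAD+. Ldha, its muscle-type subunit, had 734, 790.3 and 793 CPM in the knockout-labelled libraries, against 655, 775 and 777 CPM in the wild-type-labelled ones. The groups overlapped, and the log2 fold change was 0.074 ± 0.041 with an interval of -0.0085 to 0.16 (edgeR with the block, adjusted p = 0.308). Ldhb, the heart-type subunit, had 10.2, 9.405 and 11.2 CPM in knockout-labelled libraries, against 8.97, 8.83 and 10.04 CPM in wild-type-labelled ones, and its log2 fold change of 0.14 was not called. Ldha held 97.3% ± 0.241 (knockout-labelled) and 97.4% ± 0.234 (wild-type-labelled) of the reads per kilobase of both subunits.

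Of the 4 genes that control the flux, 0 were called in the paired test, and their median log2 fold change was -0.053. Pfkfb3, which makes the activator of phosphofructokinase and is known for its part in vessel sprouting, had 83.2, 104 and 76.6 CPM in knockout-labelled libraries, against 84.5, 102 and 84.7 CPM in wild-type-labelled ones. Its interval was -0.14 to 0.052 in log2. Pfkfb4, its low-abundance relative, had 1.95, 5.56 and 4.52 CPM in knockout-labelled libraries, against 2.05, 6.505 and 4.03 CPM in wild-type-labelled ones. Pdk1 and Pdk3 encode kinases that keep pyruvate out of the citrate cycle by inhibiting pyruvate dehydrogenase. Pdk1 was lower in the knockout-labelled library in 3 of 3 pairs, at 80.9, 85.9 and 81.2 CPM in knockout-labelled libraries, against 84.3, 86.1 and 88.3 CPM in wild-type-labelled ones. Pdk3 was higher in 3 of 3 pairs, at 15.7, 19.4 and 18.4 CPM in knockout-labelled libraries, against 12.8, 17.2 and 16.2 CPM in wild-type-labelled ones. Neither was called, with log2 fold changes of -0.06 ± 0.048 for Pdk1 and 0.21 ± 0.085 for Pdk3 (edgeR with the block, adjusted p = 0.53 and 0.117). The share of Pdk1 in the reads per kilobase of the 2 kinases was 60.5% ± 2.05 (knockout-labelled) and 64.95% ± 3.21 (wild-type-labelled).

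Of the transporters, Slc16a3, the lactate exporter, had 95.03, 105 and 109 CPM in knockout-labelled libraries, against 83.97, 102 and 105 CPM in wild-type-labelled ones, and was not called. Slc2a3, a glucose transporter best known from neurons, had 2, 7 and 4 reads labelled knockout, against 2, 19 and 9 reads labelled wild-type. Slc2a1, the main glucose transporter of brain endothelium, is not among the 37 and was picked with its values in view. It had 579.5, 389 and 570.4 CPM in knockout-labelled libraries, against 546, 397 and 599 CPM in wild-type-labelled ones, and its paired log2 fold change was -0.0042.

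Of the 6 regulators of the hypoxia response, 1 rose in the paired test, 0 fell and 5 were not called (16.7% called, against 8.81% of all genes). The median log2 fold change was -0.013. Epas1 (ENSMUSG00000024140, chr17:86753700-86833410, plus strand) encodes the second hypoxia-inducible alpha subunit, which is abundant in endothelium. It had 1278, 994 and 1059 CPM in the knockout-labelled libraries, against 1159, 876 and 992 CPM in the wild-type-labelled ones. Each library labelled knockout was above its partner, but the lowest of them was below the highest labelled wild-type. Epas1 averaged 1110 ± 149 CPM in knockout-labelled libraries and 1009 ± 142 CPM in wild-type-labelled ones (SD, n = 3 each). Its log2 fold change was 0.14 ± 0.04 (edgeR with the block, adjusted p = 0.0201) and 0.14 ± 0.13 without the block (adjusted p = 0.996). The paired call was lost with library size as the only scaling (adjusted p = 0.0695) and without number 2 (adjusted p = 0.44).

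Hif1a, the other alpha subunit, had 407, 502 and 382 CPM in the knockout-labelled libraries, against 433, 566 and 392 CPM in the wild-type-labelled ones. It was lower in the knockout-labelled library in 3 of 3 pairs, with a log2 fold change of -0.10 ± 0.041 that was not called (edgeR with the block, adjusted p = 0.136). With library size as the only scaling it was called, at -0.13 (adjusted p = 0.0428). Epas1 held 72.98% ± 4.79 (knockout-labelled) and 69.5% ± 6.53 (wild-type-labelled) of the reads per kilobase of the 2 alpha subunits. Arnt, their shared partner, had 85.3, 88.1 and 75.9 CPM in knockout-labelled libraries, against 95.8, 90.5 and 80.6 CPM in wild-type-labelled ones, and its log2 fold change of -0.10 was not called (edgeR with the block, adjusted p = 0.235).

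The oxygen-sensing genes differed little between the groups. Vhl had 29.2, 30.2 and 24.8 CPM in knockout-labelled libraries, against 26.9, 29.7 and 29.2 CPM in wild-type-labelled ones. Egln1, the main oxygen-sensing prolyl hydroxylase, had 88.2, 86.6 and 90.9 CPM in knockout-labelled libraries, against 86.02, 89.03 and 91.1 CPM in wild-type-labelled ones. Egln3, a hydroxylase that is itself a hypoxia target, had 126, 121 and 125 CPM in knockout-labelled libraries, against 114, 116 and 127 CPM in wild-type-labelled ones. None was called, and the 95% interval of Egln1 was -0.10 to 0.092 in log2.

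Among the 8 hypoxia targets, 1 rose, 1 fell and 6 were not called in the paired test (25% called, against 8.81% of all genes). The median log2 fold change was 0.0043. Ndrg1 (ENSMUSG00000005125, chr15:66929318-66969640, minus strand), a stress-responsive gene induced by low oxygen, had the clearest paired difference of the 35 genes, at 93.2, 171 and 79.7 CPM in the knockout-labelled libraries, against 121, 226 and 104 CPM in the wild-type-labelled ones. Number 2 had the highest library in both groups, and the groups overlapped, yet each pair gave nearly the same difference. The log2 ratios by pair were -0.37, -0.41 and -0.38. Ndrg1 averaged 114 ± 49.1 CPM in knockout-labelled libraries and 150.3 ± 66.3 CPM in wild-type-labelled ones (SD, n = 3 each). Its log2 fold change was -0.39 ± 0.044 with the block (edgeR, adjusted p = 8.47e-09), -0.38 without number 2 (adjusted p = 3.4e-06) and -0.39 ± 0.44 without the block (adjusted p = 0.996). Without the block, leaving out the wild-type library of number 2 turned the estimate to 0.02. Opposite-strand genes overlap 8.43% of its exon bases. In bulk samples, fewer cells of a type and less RNA per cell cannot be told apart.

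**Figure D3:**
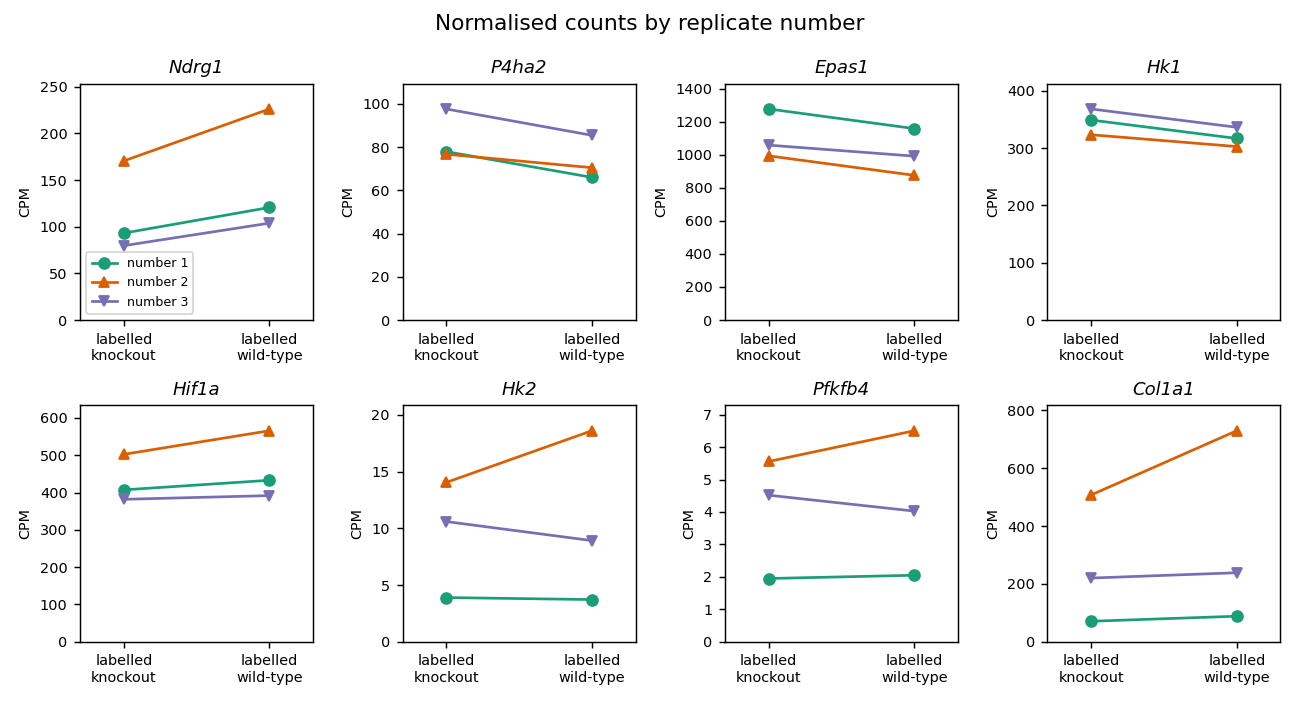
CPM of Ndrg1, P4ha2, Epas1, Hk1, Hif1a, Hk2, Pfkfb4 and the collagen gene Col1a1 in each library, on axes that start at 0, with lines joining same-numbered libraries and the knockout-labelled libraries left of those labelled wild-type. The lines of Ndrg1 run in parallel, with 93.2, 171 and 79.7 CPM labelled knockout below 121, 226 and 104 CPM labelled wild-type, while the groups as a whole overlap.

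P4ha2 (ENSMUSG00000018906, chr11:54100095-54131665, plus strand) encodes a catalytic subunit of the collagen prolyl hydroxylase, which matures collagen in the endoplasmic reticulum. It had 77.95, 76.7 and 97.7 CPM in the knockout-labelled libraries, against 66.03, 70.5 and 85.5 CPM in the wild-type-labelled ones. All 3 libraries labelled knockout were above their partners. P4ha2 averaged 84.1 ± 11.8 CPM in knockout-labelled libraries and 74.01 ± 10.2 CPM in wild-type-labelled ones (SD, n = 3 each). The log2 fold change was 0.18 ± 0.049 (edgeR with the block, adjusted p = 0.00937) and 0.18 ± 0.13 without the block (adjusted p = 0.996). The paired call was lost with DESeq2 (adjusted p = 0.165) and without number 1 (0.0527) or number 2 (0.0539). P4ha1, the gene of the related subunit, had 205, 225 and 224 CPM in knockout-labelled libraries, against 195, 231 and 215 CPM in wild-type-labelled ones, and a log2 fold change of 0.028 ± 0.042. P4ha1 held 79.7% ± 2.02 (knockout-labelled) and 81.4% ± 2.02 (wild-type-labelled) of the reads per kilobase of both subunits.

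The other targets were not called. Bnip3 and Bnip3l both mark mitochondria for removal. Bnip3 had 58.6, 65.8 and 62.4 CPM in knockout-labelled libraries, against 55.4, 70.3 and 59.1 CPM in wild-type-labelled ones. Bnip3l had 148, 153 and 136 CPM in knockout-labelled libraries, against 153, 156 and 153 CPM in wild-type-labelled ones. The counts of both are uncertain, given the sequence they share with other annotated genes. Ddit4, an inhibitor of mTOR signalling, had 39.5, 48.4 and 38.7 CPM in knockout-labelled libraries, against 34.3, 49.7 and 47.4 CPM in wild-type-labelled ones. Ankrd37 had 22.6, 20.8 and 18.99 CPM in knockout-labelled libraries, against 22.7, 21.7 and 18.5 CPM in wild-type-labelled ones; opposite-strand genes overlap 26.4% of its exon bases, and the strand setting of the counting is not given in the sources used here. Car9, a cell-surface carbonic anhydrase that is among the most oxygen-sensitive transcripts in many human tumours, had 7.8, 6.57 and 8.802 CPM in knockout-labelled libraries, against 6.68, 6.6 and 6.88 CPM in wild-type-labelled ones. Its log2 fold change of 0.20 ± 0.12 was not called (edgeR with the block, adjusted p = 0.379).

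Hypoxia-inducible factors bind the core ACGTG or, with another first letter, GCGTG. Promoter sequence was set beside the values for that reason. RefSeq promoters on GRCm38.p6 were matched for 33 of the 37 genes; Epas1, Ndrg1, Bnip3l and Slc2a3 had no entry. In the 250 bases before a start, 29 of 33 genes (87.9%) held a core on either strand, against 41.5% of 27025 genes. The latter are all genes with a promoter entry, whether or not they were tested here. The 37 were chosen as genes of these pathways, so this contrast is no test. Bases in capitals mark either core on either strand, and the palindrome CACGTG holds a core on each. The 4 promoters below, shown 5′ to 3′, are those of the called target P4ha2, of its relative P4ha1, which was not called, and of Ldha and Bnip3, which hold the core 5 times each, counting each strand, and were not called.
P4ha2 (chr11:54100674-54100923, plus strand): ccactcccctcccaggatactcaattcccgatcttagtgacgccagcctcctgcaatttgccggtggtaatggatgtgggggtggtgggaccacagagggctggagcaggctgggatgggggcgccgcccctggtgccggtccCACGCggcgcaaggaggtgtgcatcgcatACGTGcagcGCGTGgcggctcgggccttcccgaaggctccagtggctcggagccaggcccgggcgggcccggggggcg
P4ha1 (chr10:59323046-59323295, plus strand): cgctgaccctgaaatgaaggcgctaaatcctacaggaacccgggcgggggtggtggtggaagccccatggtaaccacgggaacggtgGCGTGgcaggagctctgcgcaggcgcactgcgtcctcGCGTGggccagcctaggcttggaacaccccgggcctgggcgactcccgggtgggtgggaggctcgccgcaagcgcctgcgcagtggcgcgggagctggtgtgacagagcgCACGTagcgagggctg
Ldha (chr7:46845554-46845803, plus strand): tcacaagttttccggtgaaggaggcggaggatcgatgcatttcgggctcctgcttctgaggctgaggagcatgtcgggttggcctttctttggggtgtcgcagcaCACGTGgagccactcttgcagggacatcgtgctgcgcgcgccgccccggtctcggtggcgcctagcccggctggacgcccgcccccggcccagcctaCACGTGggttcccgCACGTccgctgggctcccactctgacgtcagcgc
Bnip3 (chr7:138909507-138909756, minus strand): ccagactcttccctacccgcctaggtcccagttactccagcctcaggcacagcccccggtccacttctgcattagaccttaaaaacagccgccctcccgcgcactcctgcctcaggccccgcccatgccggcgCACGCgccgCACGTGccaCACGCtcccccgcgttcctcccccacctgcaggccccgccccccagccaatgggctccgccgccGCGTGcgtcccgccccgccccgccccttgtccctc
Both P4ha genes hold the core 3 times. Of the tested genes with a core, 28 in all, 2 were higher and 0 lower in the paired test, with a median log2 fold change of 0.024. Of the 4 without one, 0 were called. Among all genes tested, 8.81% were called in that test, 4.81% higher and 4.01% lower. Genes with and without a core were not compared by a test. The called genes Epas1 and Ndrg1 are in neither count, as they had no promoter entry. A match is a description of the letters and not a bound site.

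Most of these genes had a wider range between replicate numbers than difference between labels. A range over 3 means tends to exceed a difference between group means even where neither number nor label matters, so this was no test. The range between the means of the 3 numbers was larger than the paired fold change for 34 of the 35 genes (97.1%), against 83.9% of all genes tested; Pdk1 was the exception. The median range was 0.217 log2 units over the 35 genes and 0.205 over all genes. It reached 2.67 for Eno2, 2.09 for Hk2, 1.59 for Pfkfb4 and 1.11 for Ndrg1.

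**Figure D4:**
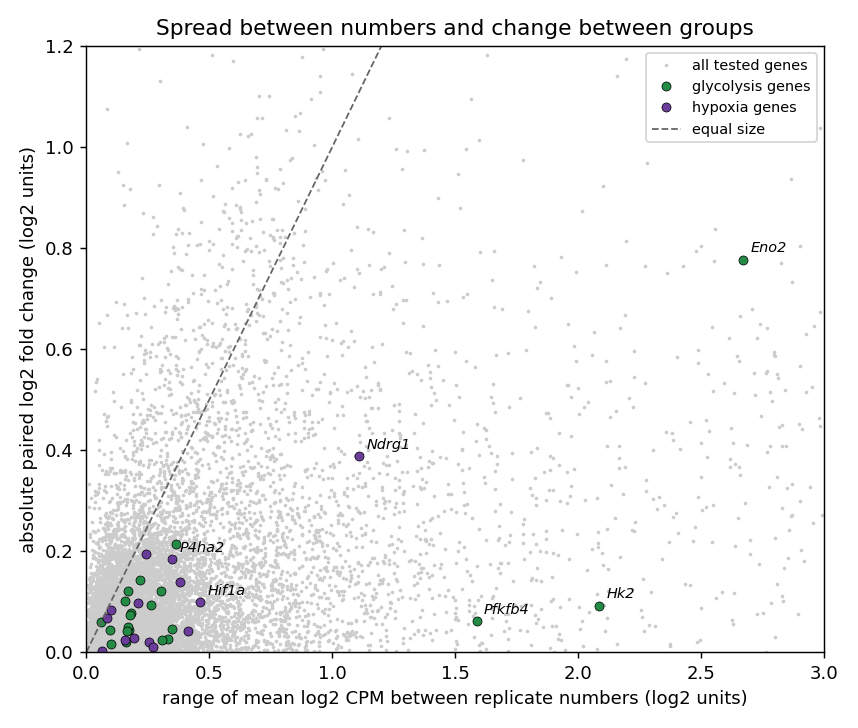
Absolute paired log2 fold change of each tested gene against the range of its mean log2 CPM between the 3 replicate numbers, with glycolysis genes in green, hypoxia genes in purple and all tested genes in grey; 193 genes lie beyond the axes. Below the dashed line of equal size the range is larger than the fold change, which holds for 34 of the 35 genes. Eno2, Hk2, Pfkfb4 and Ndrg1 lie farthest to the right. A range over 3 means tends to exceed a difference between group means, so the line is not a test.

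The numbers had different profiles. Both libraries of number 2 were above the other 4 for 10 of the 35 genes (28.6%, against 17.02% of all genes): Hk2, Eno2, Pfkfb3, Pfkfb4, Hif1a, Vhl, Bnip3, Ddit4, P4ha1 and Ndrg1. Both libraries of number 3 were highest for 11 genes (31.4%, against 12.3% of all genes), 9 of them enzymes or the lactate exporter of glycolysis: Gpi1, Pfkl, Pfkm, Aldoa, Tpi1, Gapdh, Pgk1, Pkm and Slc16a3, with Egln1 and P4ha2 beside them. Both libraries of number 1 were lowest for 10 genes (28.6%, against 10.7% of all genes), among them Hk2, Tpi1, Ldha and P4ha1. In the other direction, number 1 was highest for 4 genes (11.4%, against 9.17% of all genes), Epas1 among them. Number 2 was lowest for 4 genes (11.4%, against 15.8%) and number 3 for 3 genes (8.57%, against 13.6%). These counts describe the libraries and were not tested.

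Transcripts of connective tissue cells also differed by number. Col1a1, the main chain of fibrillar collagen, had 70.9, 507 and 220.2 CPM in the knockout-labelled libraries, against 88.4, 729 and 239 CPM in the wild-type-labelled ones, so that number 2 was highest in both groups, as it was for Ndrg1, Hk2 and Hif1a. Of 12 mural cell markers 10 were tested and 3 fell in the paired test (Pdgfrb, Cspg4 and Notch3). As a share, 30% were called, against 8.81% of all genes. Pdgfrb and Cspg4 were higher in the knockout-labelled library in pair 3. The 10 tested markers had a median paired log2 fold change of -0.47, from -0.62 to 0.31. By pair number the median was -0.59, -0.43 and 0.15. Of these 10 markers, 3 were lower and 1 was higher in all 3 pairs. Among those not called, Rgs5 was at 0.31, the highest of the 10, and Tagln at 0.089. The summed level of the list was 1437 to 1878 CPM in the knockout-labelled libraries and 1418 to 2230 CPM in the wild-type-labelled ones, and Vtn was at 0 in 2 libraries of each group. Of 10 fibroblast markers 8 were tested, 2 rose and 2 fell in the paired test (50% called, against 8.81% of all genes). Their sum, by number, was 23020, 19940 and 24570 CPM labelled knockout, against 21080, 17390 and 21940 CPM labelled wild-type. Number 2 thus had the lowest sum in both groups, although it was highest for Col1a1. Lum and Dpt were at or near 0. The markers named here were picked with their values in view. Fn1 and Tagln, which dominate these sums, are also made by cultured endothelial cells. The part of such cells in the differences of Ndrg1, Hk2 and Hif1a was not tested.

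Other genes of the same pathways were counted in the same paired test, in which 8.81% of all genes were called. Of 41 further genes of glycolysis and pyruvate use, 31 were tested, 2 rose and 0 fell (6.45% called). Slc2a4, the insulin-responsive glucose transporter, rose by a log2 fold change of 0.68 and Pck2, the mitochondrial carboxykinase, by 0.18 (edgeR with the block, adjusted p = 0.0274 and 0.0107). Neither was called with DESeq2 (adjusted p = 0.499 for Slc2a4 and 0.164 for Pck2) or without number 2; without number 3 Slc2a4 was at 0.37 (adjusted p = 0.428), and without number 1 Pck2 was not called (adjusted p = 0.0523). Of 57 further hypoxia genes tested, 3 rose and 5 fell (14.04% called). Lox, which crosslinks collagen, had 15.4, 111 and 27.3 CPM in the knockout-labelled libraries, against 29.1, 158 and 37.1 CPM in the wild-type-labelled ones. Its log2 fold change was -0.59 ± 0.066 (edgeR with the block, adjusted p = 3.61e-07), and it was still called without number 2. Pygl, liver glycogen phosphorylase, fell by 0.77 and Plin2, a lipid droplet coat protein, by 0.16 on the log2 scale, and both calls were lost with DESeq2 (adjusted p = 0.252 for Pygl and 0.153 for Plin2) and without number 2; that of Plin2 was also lost without number 3 (adjusted p = 0.0799).

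In the pathways that glycolysis feeds, the share called was 20% for the pentose phosphate pathway, 5.88% for the citrate cycle and 4.17% for the respiratory chain. Of 10 genes of the pentose phosphate pathway, 2 rose and 0 fell: H6pd, by a log2 fold change of 0.21, and Prps1, which makes the ribose donor of nucleotides, by 0.29 (edgeR with the block, adjusted p = 0.000753 and 0.0277). Of 17 genes of the citrate cycle, Idh2, the mitochondrial NADP-dependent isocitrate dehydrogenase, was the only one called, at 22.97, 26.2 and 26.1 CPM in the knockout-labelled libraries, against 16.3, 19.3 and 21 CPM in the wild-type-labelled ones (log2 fold change 0.41 ± 0.076, edgeR with the block, adjusted p = 0.00013). Of 24 genes of the respiratory chain tested, Ndufa4 rose by 0.21 (adjusted p = 0.0399) and the other 23 were not called. Without number 2 or with DESeq2, H6pd and Idh2 were still called and Prps1 and Ndufa4 were not; the call of Ndufa4 was also lost with library size as the only scaling (adjusted p = 0.0828).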

How the data were processed

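The authors deposited raw counts of reads per gene symbol for 6 libraries, not normalised; 0 columns belonged to other samples. Per the submitters' processing notes, the tools were STAR 2.6.1d, Trim Galore 0.6.4, FastQC 0.11.8 and featureCounts of Subread 1.6.4, on mm10/GRCm38. Annotation, strand setting and handling of multi-mapping reads: not given in the sources used here. Per the labels' protocols, RNA was extracted with PicoPure and libraries made with the TruSeq RNA v2 or the TruSeq Stranded mRNA kit; which library had which kit is not given there. Overlapping and antisense genes are therefore uncertain.

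The counts were fitted with edgeR 4.0.16 (R 4.3.3): filterByExpr kept 12753 genes, TMM factors were 0.983 to 1.02, and groups were compared by the robust quasi-likelihood F test with Benjamini-Hochberg adjustment over all 12753 genes at 0.05. CPM uses TMM-scaled totals; CPM per kilobase divides by the merged exon length of GENCODE M21 on GRCm38, in which 95.8% of the symbols were found. Fold changes are labelled knockout over labelled wild-type. The smallest two-sided p of an exact test is 0.1 (3 against 3) or 0.25 (3 pairs). Every 2 libraries differed by more than sampling noise (smallest chi-square per degree of freedom 5.44).

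The design has no block. Same-numbered libraries correlated at 0.776, 0.857 and 0.652 in their deviations from group means, so the numbers were taken to pair them; the labels are silent on this. With the block the biological coefficient of variation was 0.0383, against 0.189 without it, at 2 against 4 residual degrees of freedom, so paired p-values rest on a spread pooled across genes.

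Alternatives were DESeq2 1.42.0, limma-voom (limma 3.58.1), library size alone, no filter, a 1.5-fold minimum, longest transcripts for shares of a step, and leaving out libraries or numbers. The 37 genes and all lists were chosen with earlier results of these data known. Named genes were the 37, Fli1, up to 4 called genes with the smallest paired p of each other pathway list, and Mki67 and Col1a1 of the marker lists; any other gene is marked in the text as picked with its values in view. A called gene of the further hypoxia list is not reported here. Markers of blood cells, and of glia and neurons, and immediate early genes were also counted: 4 of 12 blood markers were tested and 4 rose, with Cd48, Spi1, Rac2, Tyrobp and Cd52 (named with their values in view) at 0 reads; 3 of 10 glia and neuron markers were tested and 0 were called; 7 of 12 immediate early and heat shock genes fell. Of 10 endothelial markers, 2 rose and 0 fell (20% called). The share called was 100% of the blood markers tested and 58.3% of the immediate early and heat shock genes. Of all genes, 8.81% were called in the same paired test, 4.81% higher and 4.01% lower.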

Additional observations from a re-analysis of the deposited data

How the results depend on the processing

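The replicate block decided the calls: it took the count over all genes to 613 higher and 511 lower, against 0 and 1 with no replicate block, and the count among the 37 genes to 3 higher and 1 lower, against 0 and 0 without it. Without the block, DESeq2 called 12 genes higher and 7 lower over all genes, limma-voom and the 1.5-fold minimum called 0 lower, and leaving out 1 library gave 0 to 1 lower; none of these called any of the 37. With the block, DESeq2 called 262 higher and 111 lower over all genes and 1 of the 37 higher. The 1.5-fold minimum left 22 and 5 over all genes and 0 of the 37 in either direction. Library size alone gave 1 of the 37 higher and 2 lower (471 higher and 730 lower over all genes). Leaving out a replicate number gave 339 to 603 higher and 205 to 600 lower over all genes, lowest without number 2, and 0 to 2 of the 37 higher and 1 to 2 lower; Eno2 was the added one, without number 3. Ndrg1 kept its paired call under every one of these alternatives but the 1.5-fold minimum and the removal of the block.

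Estimates near 0 changed sign under some alternatives. So did those of Hk2, Eno1 and Pfkfb4, with and without the block, and those of Eno2, Hif1a and Ndrg1, without it only. The cause was not tested. With library size alone Bnip3 was at -0.011 without the block and -0.0068 with it, and P4ha1 at -0.00085 without it. Leaving out 1 library, without the block, gave log2 fold changes of -0.54 to 0.58 for Hk2, -0.15 to 0.077 for Pfkm, -0.043 to 0.018 for Pfkp, -0.014 to 0.10 for Tpi1, -0.014 to 0.10 for Pgk1, -0.095 to 0.044 for Pgam1, -0.078 to 0.23 for Eno1, -1.91 to 0.59 for Eno2, -0.10 to 0.068 for Pkm, -0.0063 to 0.11 for Ldha, -0.18 to 0.048 for Pfkfb3, -0.40 to 0.39 for Pfkfb4, -0.0039 to 0.15 for Slc16a3, -0.23 to 0.058 for Hif1a, -0.082 to 0.056 for Vhl, -0.025 to 0.017 for Egln1, -0.055 to 0.12 for Bnip3, -0.20 to 0.045 for Ddit4, -0.093 to 0.051 for Ankrd37, -0.037 to 0.082 for P4ha1 and -0.80 to 0.023 for Ndrg1. Leaving out a replicate number, with the block, gave -0.27 to 0.18 for Hk2, -0.00091 to 0.072 for Gpi1, -0.0903 to 0.033 for Pfkm, -0.0076 to 0.073 for Aldoa, -0.075 to 0.041 for Pgam1, -0.058 to 0.24 for Eno1, -0.057 to 0.0038 for Pkm, -0.085 to 0.00053 for Pfkfb3, -0.18 to 0.0701 for Pfkfb4, -0.10 to 0.072 for Vhl, -0.024 to 0.014 for Egln1, -0.014 to 0.078 for Bnip3, -0.16 to 0.077 for Ddit4 and -0.032 to 0.011 for Ankrd37. With the longest transcript as length, Pfkl held 74.2% labelled knockout and 72.8% labelled wild-type of its step, Ldha 98.2% and 98.3%, Pdk1 65.5% and 69.6%, P4ha1 66.3% and 68.7%, and Bnip3l 55.7% labelled knockout. With 3 libraries a group, genes of few reads (Eno1, Eno2, Pfkfb4, Car9) had the widest paired intervals.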
